A study of Mus musculus with 6 samples.

Results

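The 10 genes described here encode transcription factors of the T cell and natural killer (NK) cell lineages: Tcf7, Lef1, Gata3, Bcl11b, Tox, Id2, Eomes, Tbx21, Runx3 and Zbtb16. They are listed by name as factors of these lineages and were found by symbol, with no threshold on their levels, and all 10 were present among the 23284 genes with a value. C1498 is a mouse line kept as acute myeloid leukemia (AML), and the cells carried EGFP from a retrovirus and were expanded from a single clone. They were injected intravenously into young adult female C57BL/6J mice, and GFP+ CD49b+ cells were sorted from the bone marrow on day 21 from 3 mice given cytarabine (cytosine arabinoside, a nucleoside analog that stops DNA synthesis) and 3 control mice, which the labels give both as PBS-treated and as not treated. Each mouse gave 1 library, and the libraries are called cytarabine 1 to 3 and control 1 to 3. Levels are FPKM, read fragments scaled by exon length and by the mapped total of the library, so they are comparable between genes per length.

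T cells, NK cells and innate lymphoid cells arise from a common progenitor, and the factors that guide them are few and shared. Notch signals in the thymus switch on Tcf7 (TCF1) and Gata3, which then switch on Bcl11b, the factor that closes off other fates. Id2 carries no DNA-binding region of its own and holds E proteins away from their sites, which favors NK and innate lymphoid fates, while Eomes and Tbx21 (T-bet) drive NK cell maturation and the cytotoxic program of CD8 T cells.

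Promoter sequence from RefSeq (GRCm38.p6) was held for 8 of the 10 genes. The stretches shown belong to Id2 and Bcl11b, whose levels differed between the groups in opposite directions, and to Runx3, whose upstream promoter held its own family's motif. Each reads 5′ to 3′ toward the start of a RefSeq transcript and holds no annotated exon of the gene. The Id2 stretch lies inside the gene as GENCODE draws it, in an intron of a longer transcript and upstream of the RefSeq start. Capitals mark an E-box (CANNTG on either strand, the site of E proteins) in Id2 and the RUNX letters (TGTGGT on either strand) in Runx3.
Id2, chr12:25096254-25096342, minus strand: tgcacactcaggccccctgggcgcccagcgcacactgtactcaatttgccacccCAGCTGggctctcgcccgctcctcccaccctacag
Bcl11b, chr12:108003603-108003664, minus strand: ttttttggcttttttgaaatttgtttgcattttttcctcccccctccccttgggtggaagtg
Runx3, chr4:135120395-135120644, plus strand: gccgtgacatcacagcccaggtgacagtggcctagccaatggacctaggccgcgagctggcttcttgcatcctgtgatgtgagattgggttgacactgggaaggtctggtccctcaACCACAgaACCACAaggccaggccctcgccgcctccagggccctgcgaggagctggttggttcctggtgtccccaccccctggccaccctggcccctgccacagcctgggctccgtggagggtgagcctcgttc
In the 250 bases before a start, the Id2 window held 1 E-box and the Bcl11b window none, where 66.2% of the 32851 windows of all genes held one. The upstream Runx3 window held the RUNX letters 2 times, separated by a pair of bases, and 14.0% of all windows held them at least once. It was the only 1 of the 13 windows of these genes with those letters. A match is a run of letters, and binding was not measured.

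Of the 10 factors 7 had a mean of at least 1 FPKM, and the 3 below it were the T-box factors Eomes and Tbx21 and the innate-like T cell factor Zbtb16. Tcf7 stood far above the rest, followed in order of mean level by Id2, Runx3, Gata3, Lef1, Tox and Bcl11b. Over the 6 libraries, Tcf7 ranged from 263 to 377 FPKM, which placed its mean at 342 FPKM, rank 242 of the 11703 genes at 1 FPKM or more. Id2 ranged from 43.1 to 119 FPKM and Runx3 from 37.5 to 57.5 FPKM, so these neighbors overlapped. Gata3 lay between 21.8 and 28.7 FPKM, Lef1 between 15.0 and 21.7 FPKM, Tox between 8.998 and 11.8 FPKM and Bcl11b between 3.45 and 6.81 FPKM. Eomes reached at most 0.551 FPKM, Zbtb16 0.590 FPKM and Tbx21 0.195 FPKM, and the ranges of these last 3 overlapped.

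**Figure D1:**
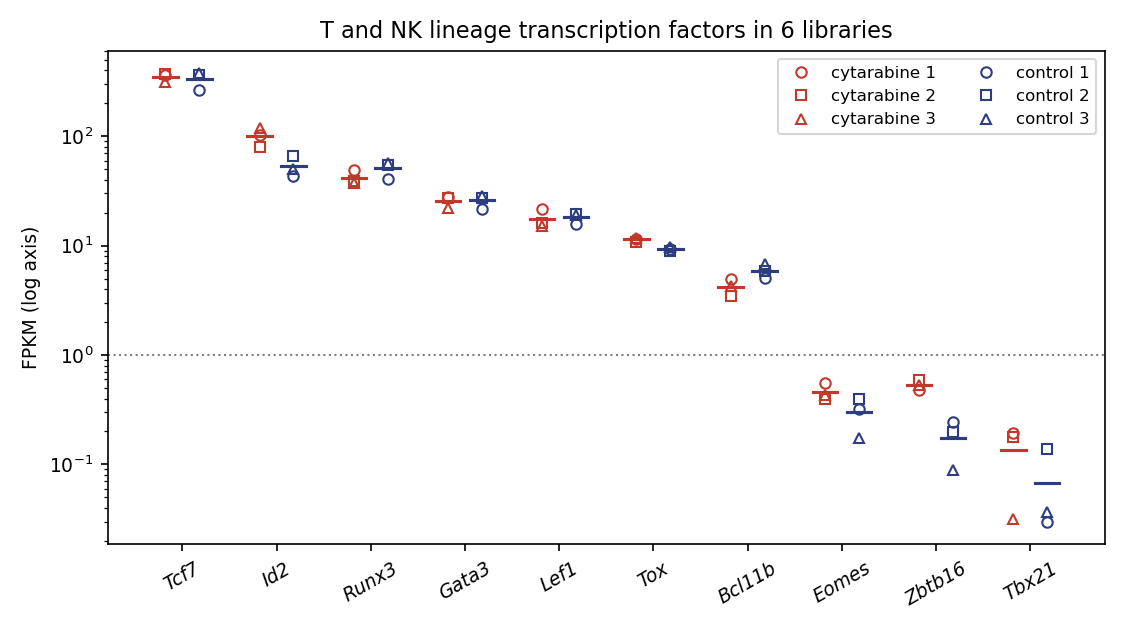
FPKM on a log axis of the 10 transcription factors in each library, ordered by mean level, with red for cytarabine, blue for control, marker shape for the replicate and a bar for the group mean. The dotted line is 1 FPKM. Tcf7 lies between 263 and 377 FPKM in every library and Eomes, Zbtb16 and Tbx21 lie below 1 FPKM.

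These levels were set beside factors that define other blood lineages. Of the myeloid factors, Gfi1 lay between 9.80 and 17.3 FPKM, Cebpb between 3.52 and 10.8 FPKM, Spi1 (PU.1), the main factor of the myeloid lineage, between 2.49 and 7.72 FPKM and Cebpa, needed for granulocytes, between 0.462 and 2.18 FPKM. Klf4 ranged from 0.671 to 40.7 FPKM and was at 18.6 FPKM or more only in cytarabine 2, cytarabine 3 and control 1, the libraries with the most colon transcript. The B cell factors Pax5 and Ebf1 had means of 0.348 and 0.440 FPKM, whereas the B cell coactivator Pou2af1 lay between 20.4 and 32.6 FPKM. The summed level of the 10 T and NK factors was 399 to 581 FPKM per library and that of 7 myeloid factors 30.8 to 65.7 FPKM. Most of the former was Tcf7 alone, at 263 to 377 FPKM, with Id2 next at 43.1 to 119 FPKM. T cell surface and signaling genes divided in the same cells: Cd3g was between 449 and 652 FPKM and Cd3e between 130 and 199 FPKM, while 5 of the 13 T cell markers (Cd247, Cd8b1, Cd8a, Cd5 and Cd4) did not reach 1 FPKM in any library. NK cell genes divided likewise: the receptor genes Klrd1 (CD94) and Klrk1 (NKG2D) were at 86.6 to 139 and 35.0 to 61.1 FPKM, and Tyrobp and Nkg7 at 23.6 to 69.4 and 14.9 to 30.8 FPKM, while Ncr1 did not exceed 0.384 FPKM. So did the 5 basophil markers. Cpa3 was at 334 to 480 FPKM, while Mcpt8 and Prss34 reached at most 4.71 and 4.30 FPKM, and Fcer1a and Ms4a2 stayed under 1 FPKM. The labels call the cells myeloid, whereas Tcf7, Id2 and Gata3 each lay above Spi1 and Cebpa in every library. This did not hold for all members. Bcl11b lay below Spi1 in cytarabine 1 and control 2, and Eomes, Tbx21 and Zbtb16 did so in every library. Klf4 lay above Gata3 in cytarabine 2 and cytarabine 3. The cells are called by their line name here.

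**Figure D2:**
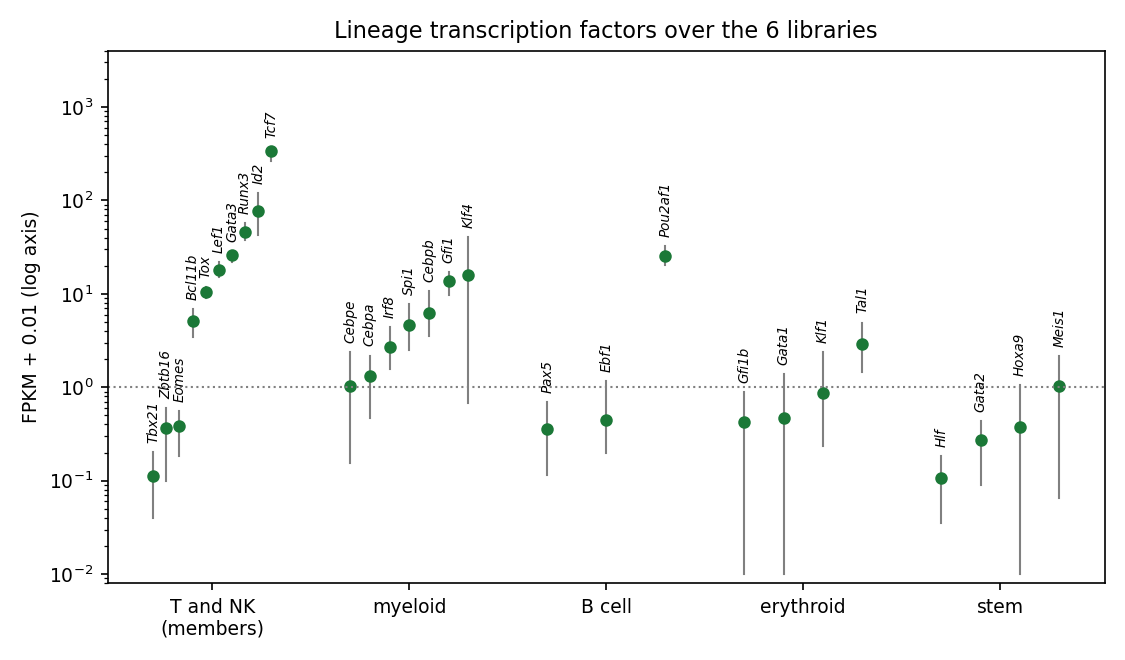
FPKM + 0.01 on a log axis of the 10 T and NK factors and of factors of 4 other lineages; points are means over the 6 libraries, lines run from the lowest to the highest library and the dotted line is 1 FPKM. Tcf7, at a mean of 342 FPKM, is the highest point of all groups, and Pou2af1 stands apart from the other B cell factors.

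Some libraries held RNA of other tissues, and this crossed the groups. The summed level of 13 colon epithelium genes was 461, 6072 and 6684 FPKM in cytarabine 1, 2 and 3 and 2996, 35.3 and 29.6 FPKM in control 1, 2 and 3. Heart muscle genes were highest in control 1, at a sum of 3022 FPKM over 8 genes. The 8 neutrophil genes summed to 189 to 1433 FPKM with cytarabine and 1438 to 2043 FPKM in controls, and 7 of them were lower at an unadjusted p under 0.05 in limma. Of all genes tested, 9.81% were lower at that threshold. In bulk RNA a change in the number of cells of a type and a change in RNA per cell cannot be told apart. Values within the libraries of little colon transcript (cytarabine 1 against control 2 and 3) and of much (cytarabine 2 and 3 against control 1) are given beside the results they touch. Library totals, worked out from the spacing of small FPKM values, were 11320000 to 18840000 reads per library, at which 3 reads on these genes correspond to 0.0201 to 0.150 FPKM, for counting error only.

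The comparison of cytarabine with control asks how the surviving leukemia cells differed after chemotherapy. Id2 and Tox were higher with cytarabine and Bcl11b was lower, while Tcf7, Lef1, Gata3 and Runx3 did not pass the test. That was 3 of the 7 factors tested at an unadjusted p under 0.05, against 17.4% of all 11703 genes. In the upward direction 2 of the 7 passed, against 7.6% of all genes, and in the downward direction 1 of the 7, against 9.81%. The test was limma on log2(FPKM + 1), which understates the change of low genes. Not 1 of the factors had an adjusted p under 0.05, nor did any of the 11703 genes (0%), so each call rests on an unadjusted p. The log2 fold change was above 0 for 3 of the 7, against 49.7% of all genes, and its median was -0.0041 for the 7 and -0.0015 for all genes.

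**Figure D3:**
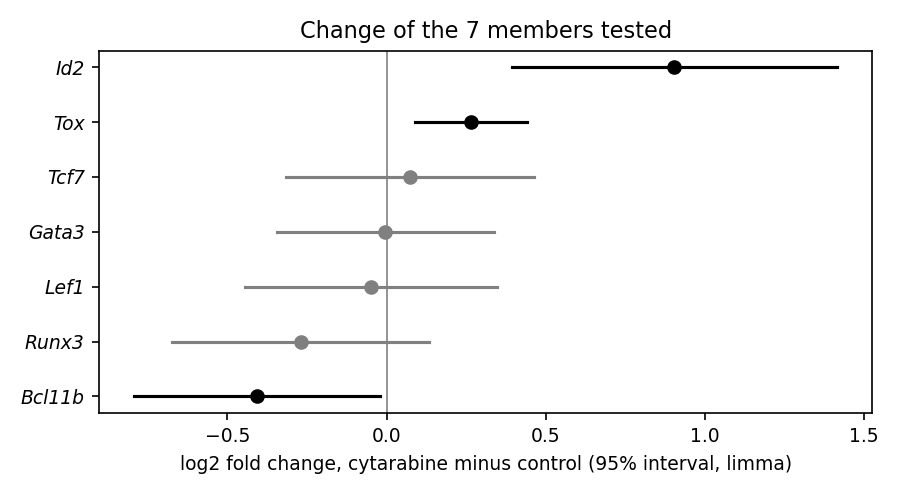
Log2 fold change of the 7 factors tested, cytarabine minus control, with 95% intervals from limma; black marks an unadjusted p under 0.05 and grey the rest. Id2 has the largest change, at 0.90, and the interval of Bcl11b ends close to 0, at -0.02.

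Id2 (chromosome 12, from 25093799 to 25097140 on the minus strand of GRCm38) had the largest change. The libraries cytarabine 1, 2 and 3 held 102, 79.7 and 119 FPKM, and control 1, 2 and 3 held 43.1, 66.6 and 49.97 FPKM. The groups did not overlap, cytarabine being the higher, and the means were 100.1 ± 19.6 and 53.2 ± 12.1 FPKM (SD, n = 3 mice each). The log2 fold change was 0.90 with a standard error of 0.21 and a 95% interval from 0.39 to 1.42 (limma, unadjusted p = 0.0051, adjusted p = 0.164). Groups that do not overlap were found for 23.8% of all genes tested, 10.9% with cytarabine higher and 12.9% with it lower, and for 3 of the 7 factors (Id2, Tox and Bcl11b). The difference was 0.81 within the libraries of little colon transcript and 1.16 within those of much. The part of other tissues in the difference was not tested. The call held under each of the settings tried, with values from 0.77 to 1.07 when 1 library at a time was left out.

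None of the other genes of its family passed the test. Id1, Id3 and Id4 likewise encode inhibitors of E proteins. Id1 was at 4.11, 52.8 and 48.4 FPKM with cytarabine and 28.5, 1.94 and 0.738 FPKM in controls, so it was high in the libraries with much colon transcript. Id3 lay between 5.11 and 32.1 FPKM and Id4 between 0 and 3.84 FPKM, and in both the groups overlapped. For Id1 the log2 fold change was 2.16 with a 95% interval from -1.25 to 5.57, and for Id3 it was 0.77, from -0.77 to 2.31 (limma). The interval of Id4 ran from -1.01 to 2.57. Whether the change of Id2 differed from theirs was not tested.

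The E proteins that Id2 binds were then examined. Tcf3 (E2A) was at 26.6, 24.7 and 22.6 FPKM with cytarabine and 28.9, 31.6 and 32.9 FPKM in controls. All 3 cytarabine libraries lay below the controls, and the difference was -0.33 on the log2 scale (standard error 0.09, limma unadjusted p = 0.0096, adjusted p = 0.182). Tcf12 (HEB), its partner in T cell progenitors, differed by -0.04, with a 95% interval from -0.26 to 0.17. Tcf4 was at most 1.96 FPKM. The ratio of Id2 to Tcf3 FPKM was 3.83, 3.23 and 5.26 with cytarabine and 1.49, 2.10 and 1.52 in controls, a pair set side by side after the values had been seen. Its groups could not overlap, because Id2 was higher and Tcf3 lower in all 3 cytarabine libraries, so the ratio adds no further result.

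Tox (chromosome 4, 6686353 to 6991557, minus strand) encodes a high-mobility-group factor that CD4 T cells and NK cells need to develop and that is kept high in exhausted T cells. It was at 11.6, 10.9 and 11.8 FPKM in the cytarabine libraries, and the controls stood lower at 9.26, 8.998 and 9.74 FPKM. The change was small but the libraries within a group lay close together, at 11.4 ± 0.46 and 9.33 ± 0.38 FPKM (SD, n = 3 each). The log2 fold change was 0.27 (standard error 0.07, 95% interval 0.09 to 0.44, limma unadjusted p = 0.0103, adjusted p = 0.183). It was 0.28 within the libraries of little colon transcript and 0.26 within those of much. With quantile normalization it was 0.21 and did not pass (unadjusted p = 0.0952, limma), nor did it within the 3 libraries of little colon transcript alone (unadjusted p = 0.0768). Of its family, Tox4 was at 31.4 to 39.1 FPKM with overlapping groups, and Tox2 and Tox3 stayed under 1 FPKM.

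Bcl11b (chromosome 12, 107910403 to 108003602, minus strand), the zinc-finger factor of T cell commitment, moved the other way. Its levels were 4.96, 3.45 and 4.27 FPKM after cytarabine against 5.11, 5.81 and 6.81 FPKM in the controls, so the highest cytarabine library lay just under the lowest control. The means were 4.23 ± 0.76 and 5.91 ± 0.85 FPKM (SD, n = 3 each), and the log2 fold change was -0.41 (standard error 0.16, 95% interval -0.79 to -0.02, limma unadjusted p = 0.0423, adjusted p = 0.274). The direction was kept within both sides of the colon division, at -0.29 and -0.34, but the call was lost without cytarabine 2 (-0.29, unadjusted p = 0.111, limma), cytarabine 3 (-0.42, unadjusted p = 0.0821), control 2 (-0.41, unadjusted p = 0.0943) or control 3 (-0.31, unadjusted p = 0.134). It was also lost with the replicate number as a block (unadjusted p = 0.0920, limma). Bcl11a, its paralog of B cells, lay between 0.204 and 1.35 FPKM.

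**Figure D4:**
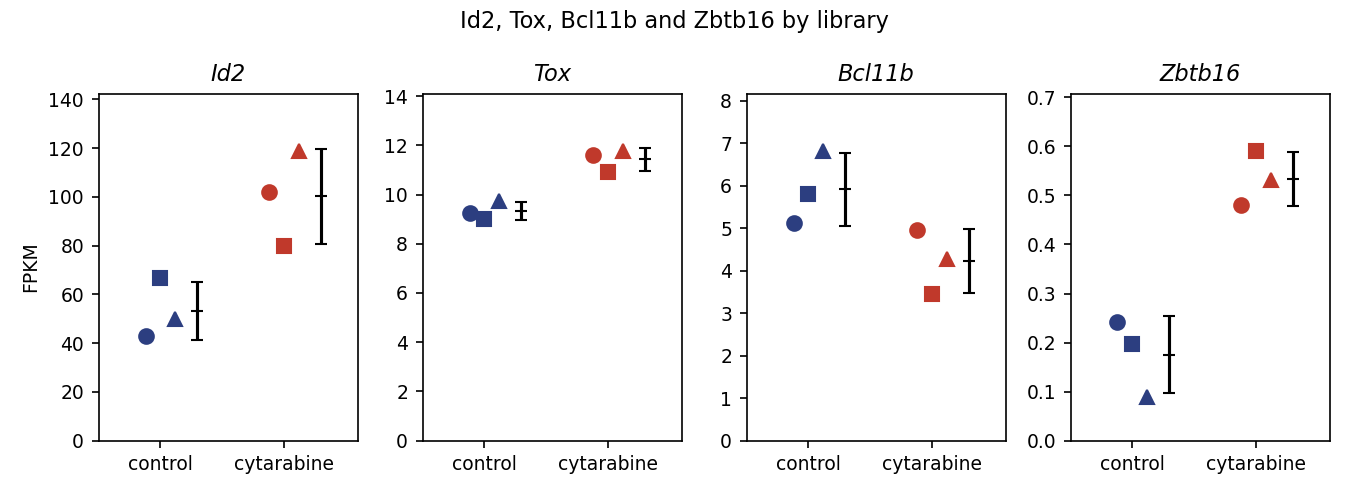
FPKM of Id2, Tox, Bcl11b and Zbtb16 in each library, on axes from 0, with controls in blue and cytarabine in red; circles, squares and triangles are replicates 1, 2 and 3, and the bars are mean ± SD (n = 3). In all 4 the groups do not overlap, and Bcl11b is the one that is lower with cytarabine.

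Tcf7 and Lef1, the TCF/LEF factors through which Wnt signals and β-catenin act and which T cell progenitors require, did not pass the test. Tcf7 (chromosome 11, 52252371 to 52283014, minus strand) was at 363, 373 and 312 FPKM after cytarabine and 263, 365 and 377 FPKM in controls. Its lowest library was control 1, which held the most heart transcript, and the groups overlapped. The log2 fold change was 0.07, with a 95% interval from -0.31 to 0.46 (limma), and it was -0.091 without control 1 and 0.38 within the libraries of much colon transcript. Lef1 (chromosome 3, 131110471 to 131224356, plus strand) was at 21.7, 16.1 and 15.0 FPKM after cytarabine and 15.6, 19.4 and 19.3 FPKM in controls. The difference was -0.05 on the log2 scale, with an interval from -0.44 to 0.35 (limma). Tcf7 was 16.7 to 23.1 times as high as Lef1 in FPKM in the same library. Their paralogs Tcf7l1 and Tcf7l2 were at most 3.16 FPKM and had their 3 highest values in cytarabine 2, cytarabine 3 and control 1, as did the colon genes.

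Gata3 (chromosome 2, 9857078 to 9890034, minus strand), needed by T cell progenitors, type 2 helper cells and innate lymphoid cells, was at 28.0, 27.3 and 22.2 FPKM with cytarabine and 21.8, 27.4 and 28.7 FPKM in controls. The groups overlapped throughout, and the log2 fold change was -0.0041 with a 95% interval from -0.35 to 0.34 (limma). Gata1 and Gata2, the factors of erythroid and stem cells, had means of 0.463 and 0.261 FPKM. Gata4 and Gata6, factors of heart and gut, reached 3.31 and 2.95 FPKM in control 1.

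Runx3 (chromosome 4, 135120652 to 135177990, plus strand), which represses Cd4 in CD8 T cells and acts in NK cells, was at 48.8, 39.2 and 37.5 FPKM with cytarabine and 40.7, 54.4 and 57.5 FPKM in controls. The libraries with much colon transcript were the 3 lowest, and the log2 fold change of -0.27 had a 95% interval from -0.67 to 0.13 (limma). Without control 1 it was -0.42 and passed (unadjusted p = 0.0251, limma). Runx3 was 13.5 to 21.5 times as high as Runx1, its paralog of blood stem cells, in FPKM. Runx2, known for bone formation, was at 5.50, 5.27 and 4.18 FPKM with cytarabine and 2.59, 2.65 and 3.40 FPKM in controls. It differed by 0.62 on the log2 scale (standard error 0.15, limma unadjusted p = 0.0067, adjusted p = 0.167). It was the only 1 of 10 tested paralogs to pass, against 17.4% of all genes, and all 3 cytarabine libraries were above the controls.

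The 3 low factors were tested singly with a two-sided exact permutation test on log2(FPKM + 1), which cannot go below 0.1 with 3 mice against 3. Zbtb16 (chromosome 9, 48654297 to 48836222, minus strand) encodes PLZF, the factor of natural killer T cells and innate lymphoid progenitors. The cytarabine libraries held 0.480, 0.590 and 0.532 FPKM, and the controls held 0.242, 0.197 and 0.0881 FPKM. By the inferred totals this was 30.9, 54.6 and 34.5 reads against 16.8, 11.9 and 4.90 reads. All 3 cytarabine libraries lay above the controls, with a mean 3.04 times as high (exact permutation p = 0.1, the smallest possible). Of the 6475 genes above 0 but under 1 FPKM, 8.12% had groups that did not overlap, 6.08% with cytarabine higher, and of the 3 low factors Zbtb16 and Eomes did, both with cytarabine higher. The difference on the log2 scale was 0.39, and it was 0.38 and 0.33 within the libraries of little and much colon transcript. In a limma fit with no filter on low levels Zbtb16 had an unadjusted p of 0.0023 and an adjusted p of 0.212. Eomes and Tbx21 had unadjusted p of 0.108 and 0.298 in that fit, where 2350 of 18178 genes were under 0.05.

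Eomes (chromosome 9, 118478212 to 118486132, plus strand) was at 0.551, 0.397 and 0.432 FPKM with cytarabine and 0.324, 0.396 and 0.175 FPKM in controls. Cytarabine 2 and control 2 were nearly equal, and the exact permutation p was 0.1, for a log2 difference of 0.17. Tbx21 (chromosome 11, 97098071 to 97115331, minus strand) was at 0.195, 0.1796 and 0.0318 FPKM after cytarabine and 0.0298, 0.137 and 0.0369 FPKM in controls. These are 0.96 to 7.74 inferred reads, the groups overlapped and the exact permutation p was 0.3. In 3 of the 6 libraries Tbx21 was below the level of 3 reads.

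Of 21 genes known as targets of these factors, 9 reached the mean of 1 FPKM that the test required. Of these Il2rb, Gzmb and Prf1 (perforin) had control means of 0.361, 0.341 and 0.719 FPKM and reached it through the cytarabine libraries alone, so their levels are given as a description and the 9 are not counted. Of the others, Il7r was higher and Myc lower at an unadjusted p under 0.05, and Axin2, Ccl5 and Itgae did not pass. At that threshold 7.6% of all genes tested were higher and 9.81% lower. Il7r, the IL-7 receptor chain that TCF1 supports in T cells, was at 9.27, 10.9 and 10.4 FPKM with cytarabine and 5.43, 6.85 and 5.93 FPKM in controls. Its difference was 0.66 on the log2 scale (standard error 0.11, limma unadjusted p = 0.0010, adjusted p = 0.136). Il2rb, the IL-2 and IL-15 receptor chain that T-bet and Eomes drive, was at 2.66, 2.01 and 1.56 FPKM against 0.281, 0.420 and 0.382 FPKM. Its groups did not overlap, which the filter favors in a gene that reached it through the cytarabine libraries. Gzmb, a cytotoxic granule protease, was at 2.71, 0.697 and 2.28 FPKM against 0, 0.665 and 0.358 FPKM, so cytarabine 2 lay only just above control 2. Axin2, a feedback inhibitor of Wnt signaling and a TCF/LEF target, was at 6.37 to 6.69 FPKM with cytarabine and 4.49 to 7.62 FPKM in controls. Myc, another, was at 33.4, 27.1 and 20.9 FPKM against 36.5, 35.6 and 48.5 FPKM, and its difference was -0.56 on the log2 scale (standard error 0.20, limma unadjusted p = 0.0322, adjusted p = 0.248). Ifng, the interferon gene that T-bet is known for, was listed at 0 in all 6 libraries.

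Among 27 tested of 33 other transcription factors of T and NK cells, 3 were higher, 4 were lower and 20 did not pass at an unadjusted p under 0.05. Of all genes tested, 7.6% were higher and 9.81% lower at that threshold. The median log2 fold change was -0.06. Higher were Ets1, which NK and T cells require, Myb, a factor of progenitors and thymocytes, and Nfil3, which opens the innate lymphoid path. Ets1 was at 13.3, 12.3 and 13.05 FPKM with cytarabine and 9.55, 9.17 and 11.3 FPKM in controls, and Nfil3 was at 17.3, 15.7 and 14.6 FPKM against 13.5, 12.5 and 12.99 FPKM. Their log2 fold changes were 0.34 (standard error 0.10) and 0.27 (standard error 0.08), with adjusted p of 0.192 and 0.214 from limma. Lower were Tcf3, Gfi1, Foxp1 and Bach2, the last a repressor that keeps lymphocytes from maturing into effector cells. Gfi1 was also counted among the myeloid factors above. Gfi1 was at 13.5, 10.2 and 9.80 FPKM against 15.1, 17.3 and 16.6 FPKM, and Bach2 was at 19.2, 13.6 and 14.2 FPKM against 19.1, 23.8 and 22.3 FPKM. In Bach2 cytarabine 1 overlapped with control 1. Ikzf1 (Ikaros), a factor of all lymphocytes, was high throughout, at 82.7 to 116 FPKM, and Notch1 was under 0.6 FPKM in every library.

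Partner proteins of these factors were examined next. Of 13 tested partners, 2 were lower, Tcf3 and the β-catenin cofactor Bcl9, none were higher, and 11 did not pass, with a median log2 fold change of -0.11. The share of all genes was 9.81% lower and 7.6% higher, and Tcf3 was also counted among the other factors above. Aes, a short relative of the Tle corepressors, was the highest of them, at 172 to 213 FPKM with overlapping groups. Ctnnb1 (β-catenin) was at 92.7 to 149 FPKM, with its 3 highest values in the libraries of much colon transcript. Cbfb, the partner that RUNX proteins need for DNA binding, was at 65.4 to 92.8 FPKM. The corepressors Tle3 and Tle4, which TCF/LEF factors recruit without β-catenin, were at 22.3 to 30.7 and 15.5 to 20.8 FPKM, while Tle1 and Tle2 stayed under 1 FPKM. Among the 4 erythroid factors, Tal1, which pairs with E proteins and is switched on in T cell leukemia, was the 1 tested. It was at 4.92, 3.90 and 3.56 FPKM with cytarabine and 1.45, 1.77 and 1.88 FPKM in controls. The change was 0.92 on the log2 scale (standard error 0.17, limma unadjusted p = 0.0015, adjusted p = 0.137). The other genes of that list, Gata1, Klf1 and Gfi1b, had means under 1 FPKM and were highest in cytarabine 1, where 6 erythroid genes summed to 311 FPKM against 36.6 to 70.3 FPKM elsewhere, and Tal1 was highest there too. The part of such cells in the Tal1 value was not tested.

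Markers of T cells and NK cells were set beside these values. The gate took GFP+ CD49b+ cells, and the libraries still held RNA of other cell types, with neutrophil genes summing to 189 to 2043 FPKM. Of the 8 tested T cell markers 1 was higher and 7 did not pass, against 7.6% of all genes higher and 9.81% lower. The 1 was Cd3d, at 7.66, 9.99 and 7.70 FPKM with cytarabine and 3.61, 4.44 and 4.47 FPKM in controls. Of the 8 tested NK cell markers Klrb1c, Klrd1, Klrk1 and Gzma were higher and Itga2 was lower. Nkg7, Prf1 and Tyrobp did not pass, at 0.31, 0.75 and -0.43 on the log2 scale, and Prf1 reached the filter through the cytarabine libraries alone. Gzma, a granule protease, was at 7.49, 3.85 and 2.56 FPKM with cytarabine and 1.04, 1.56 and 1.03 FPKM in controls. Itga2 encodes CD49b, on which the cells were sorted, and was at 8.11, 7.79 and 7.88 FPKM against 10.6, 13.3 and 12.8 FPKM (limma unadjusted p = 0.0015, adjusted p = 0.136). The summed NK markers were 228 to 289 FPKM with cytarabine and 189 to 246 FPKM in controls. Cd2 was at 2.09 to 5.17 FPKM, Cd5 at most 0.0848 FPKM and Cd8b1 at most 0.349 FPKM. The part of other T and NK cells in the results was not tested. A scaling to 5 T cell genes (Cd3e, Cd3g, Lck, Zap70 and Lat), added after the data were seen, moved the median of all genes by 0.12 upward on the log2 scale. Under it Id2 differed by 1.04 and Tox by 0.39, and both passed the test, which is against no change and not against that shift. The limma interval of Id2, from 0.50 to 1.57, lay above the shift. That of Tox, from 0.07 to 0.71, included it, so Tox was not shown to exceed the shift. Bcl11b differed by -0.29 and did not pass (unadjusted p = 0.0629, limma). After this scaling Id2, Tox, Zbtb16, Eomes and Bcl11b had groups that did not overlap, as before, and so did Runx3, at 43.4 to 43.8 after cytarabine and 44.1 to 50.8 in controls on the scaled FPKM. The groups of Runx3 were barely apart, and it did not pass under this scaling (unadjusted p = 0.123, limma). The share of all genes with such groups after the scaling was not worked out, so these separations have no background beside them.

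**Figure D5:**
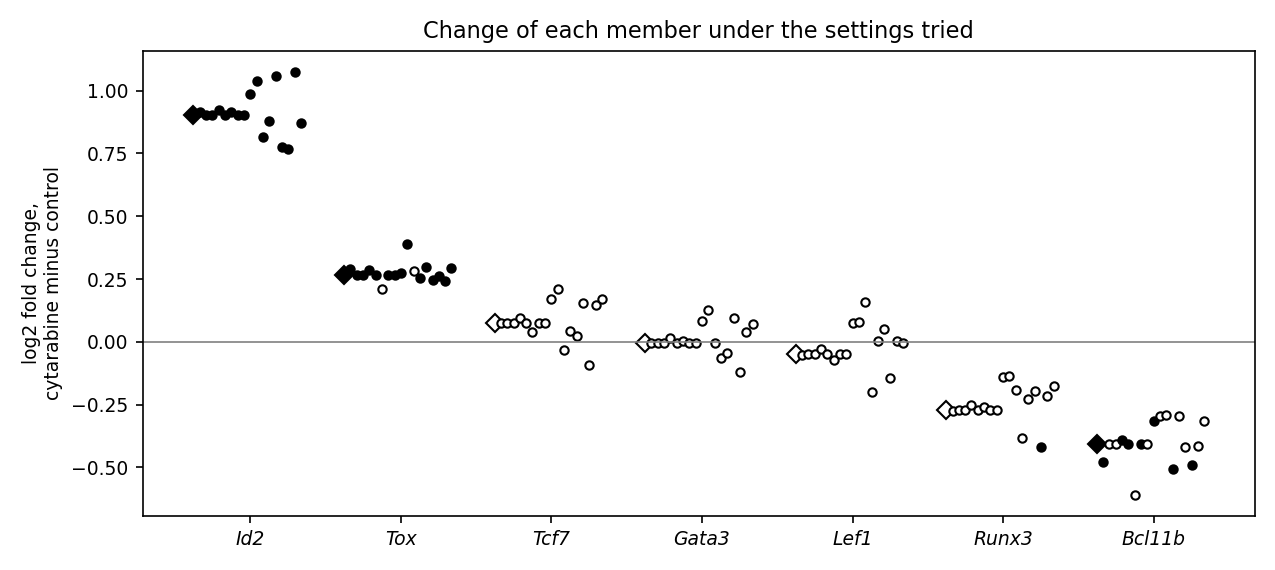
Log2 fold change of each tested factor, cytarabine minus control, under 18 settings; the diamond is the value reported, circles are the alternatives including those that leave out 1 library, and filled symbols passed at an unadjusted p under 0.05 in limma. Id2 stays filled throughout, between 0.77 and 1.07, while Tcf7, Gata3 and Lef1 cross 0.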

How the data were processed

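RNA from 3 cytarabine-treated and 3 control mice was sequenced by the authors as 75-base single-end reads. The submitters' notes name TopHat2 2.0.13, Bowtie2 2.2.3, SAMtools 0.1.19 and Cufflinks 2.2.1 with build mm10, and the authors deposited FPKM per gene, 1 file per library. Libraries came from a stranded kit, the annotation and strand setting of Cufflinks are not given in the sources used here, and exons of Lef1, Gata3, Tox and Eomes overlap annotated genes on the other strand. From the deposited FPKM, the 11703 genes whose mean reached 1 FPKM were put on the scale log2(FPKM + 1) and fitted with limma 3.58.1 in R 4.3.3, with a trend in eBayes, two-sided p-values and Benjamini-Hochberg adjustment over all 11703. Low members were compared with an exact permutation test (scipy 1.17.1). Depth was inferred from the steps of low values in 2745 genes with 1 transcript in GENCODE M21, assuming fragments of 200 bases. The limma fit was also tested on simulated data. Positions are from GENCODE M21 (GRCm38), and figures were drawn with matplotlib 3.10.9. The set of members and the gene lists were chosen with earlier results of these data known. All members are named. Genes of the factor, paralog, partner and target lists could be named when they passed, had the highest level of their list or shared a member's family, and for each tested member the closest gene by correlation is named. Markers of other cell types are named beside the results they move with. Others (such as Axin2, Ifng, Notch1, Tcf12, the Tle genes, Cbfb, the basophil markers and factors of other lineages) were named after their values were seen. 1 gene of the target list is not reported here. Of 199 list entries 197 were found, 5 of them under an older symbol. The p-values measure the spread between mice.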

Additional observations from a re-analysis of the deposited data

How the results depend on the processing

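Of 122 values of single members under alternatives with a test, 107 kept their direction and 94 also their side of the threshold, and of 32 without a test 29 kept their direction. The count of genes at an unadjusted p under 0.05, 2038, was 994 with the replicate number as a block and 1203 within the 3 libraries of little colon transcript, which was added once the values were known. It ranged from 1176 (without control 3) to 4111 (without cytarabine 1) when 1 library was left out, and was 1287, 1254 and 1255 without cytarabine 2, cytarabine 3 and control 2. At an adjusted p under 0.05, 0 genes became 1 with a pseudocount of 0.1, 2 without the trend, 379 with the side of the colon division as a factor, 14 within the 3 libraries, and 0 to 6 when 1 library was left out. The 3 members called became 1 (Id2) with quantile normalization and within the 3 libraries, where 1 library stands for cytarabine and is assumed to vary like the others, and 2 to 4 when 1 library was left out. Of the genes called, 43.7% were higher with cytarabine, against 70.3% (1050 higher, 443 lower) when scaled to 5 T cell genes and 56.8% with the colon factor. With the block 2 members were called, Id2 and Tox. Same-numbered libraries did not deviate together (correlations -0.71, -0.25 and -0.59). This cannot decide whether they were paired, because colon transcript was lowest in cytarabine 1 among the treated and highest in control 1 among the controls. The block therefore rests on the numbers in the labels alone.

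Small values changed sign, and the cause was not tested. Tcf7 was -0.032 within the 3 libraries and -0.091 to 0.17 when 1 library was left out. Lef1 was 0.077 with the colon factor, 0.079 scaled to T cell genes, 0.16 within the 3 libraries and -0.20 to 0.052 when 1 library was left out. Gata3 was 0.015 with equal sums, 0.0014 with quantile normalization, 0.084 with the colon factor, 0.13 scaled to T cell genes, 0.17 within the libraries of much colon transcript and -0.12 to 0.096 when 1 library was left out. Bcl11b did not pass in 10 of its alternatives, and its value ranged from -0.51 to -0.29 when 1 library was left out. With 3 mice a side, intervals reaching from -0.44 to 0.46 leave moderate changes of Tcf7, Lef1 and Gata3 undetectable.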

Other observations

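The genes whose levels ran most like each member over the 6 libraries were found by Pearson correlation of log2(FPKM + 1). This is a description of 6 points, pooled over both groups, that share their tissue admixture. Each gene has the highest r of all genes tested, so a high r and a group difference like the member's follow from the choice. Lef1 ran most like Mcm5, a DNA replication licensing factor (r = 0.997), and Gata3 like Ino80b (r = 0.997), a chromatin remodeling subunit. Bcl11b ran most like Flcn (r = 0.999), Runx3 like Rapgef1 (r = 0.996) and Tcf7 like Ndufc2 (r = 0.981). Id2 ran most like Mafk (r = 0.990), a small Maf protein, which was at 21.1, 20.3 and 22.0 FPKM with cytarabine and 16.0, 18.6 and 16.7 FPKM in controls. Tox ran most like Cd200r4 (r = 0.996), an activating receptor of the CD200 receptor family, which was at 26.0, 19.5 and 26.4 FPKM with cytarabine and 12.6, 10.9 and 14.5 FPKM in controls. Within the members, the highest r were 0.93 for Tcf7 and Gata3, 0.87 for Tox and Id2 and 0.85 for Bcl11b and Runx3. The lowest were -0.60 for Tox and Bcl11b and -0.55 for Id2 and Bcl11b. With the groups pooled, the r among Id2, Tox and Bcl11b also carry the group differences given above.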
